A study of Mus musculus with 7 samples.

Results

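The genes described here are those of polyamine metabolism. Putrescine, spermidine and spermine are small, positively charged molecules that bind nucleic acids and are needed for cell growth. Cells make putrescine from ornithine and lengthen it to spermidine and then spermine with aminopropyl groups from decarboxylated S-adenosylmethionine, and they break polyamines down by acetylation and oxidation. The prostate is known for making and secreting large amounts of polyamines, and in rodents the first enzyme of the route responds to androgen. The list, chosen by function, holds 10 genes, namely the synthetic enzymes Odc1, Amd1, Srm and Sms, the catabolic enzymes Sat1, Smox and Paox, and the regulators Azin1, Oaz1 and Oaz2. Of these, 8 are named by a probe set, and 6 (Odc1, Srm, Sat1, Smox, Azin1 and Oaz2) by a probe set of 1 gene, among 18938 genes measured in this way. Sms and Oaz1 lie on probe sets that also name a transcribed pseudogene, and the expression of Amd1 and Paox was not analysed here.

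RNA came from the anterior prostate of Nkx3.1-/- mice, which lack the homeodomain transcription factor Nkx3.1 in all cells and develop prostatic hyperplasia and dysplasia. NAC-treated mice received drinking water with 5 mM N-acetylcysteine (NAC), a cysteine donor for glutathione that acts as an antioxidant, for 13 weeks, and vehicle mice received plain water. All mice were 16 weeks old, of a recombinant inbred B6/129 background and null for Nkx3.1, so that neither group carries the intact gene. There were 4 NAC arrays (replicates 1 to 4) and 3 vehicle arrays (replicates 1, 2 and 4), with 1 mouse each on Affymetrix Mouse Gene 1.0 ST arrays. The labels name the whole prostate in 1 field and the anterior prostate in another. Littermates were split into cages by what they drank, so that cage and treatment cannot be told apart. The comparison asks how the RNA of polyamine genes differs between NAC and vehicle prostates. Values are log2 expression per probe set after RMA, and a log2 fold change is NAC minus vehicle.

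The arrays had medians from 7.12 to 7.16. The luminal epithelial markers, 8 genes with Krt8, Krt18 and Epcam among them, averaged 12.001 to 12.11 on NAC arrays and 12.03 to 12.05 on vehicle arrays. NAC replicate 3 stood apart in genes of other tissues. The 6 lung epithelial markers averaged 8.37 on that array and at most 5.83 on the others, and the 6 adipocyte markers 7.48 and at most 6.06. The 7 seminal vesicle markers, genes of the gland that adjoins the anterior prostate, averaged 8.62, 9.87, 9.31 and 10.64 on NAC replicates 1 to 4, against 10.01, 10.39 and 10.37 on vehicle replicates 1, 2 and 4. All 7 of these genes had the lower mean with NAC, and 3 of them (Svs3a, Svs4 and Svs6) had all NAC values below all vehicle values, as did 2.18% of all genes. The part of these tissues in the values below was not tested. In RNA of whole tissue, fewer cells of a type and less RNA per cell cannot be told apart. Expression of the deleted gene was not analysed here.

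**Figure D1:**
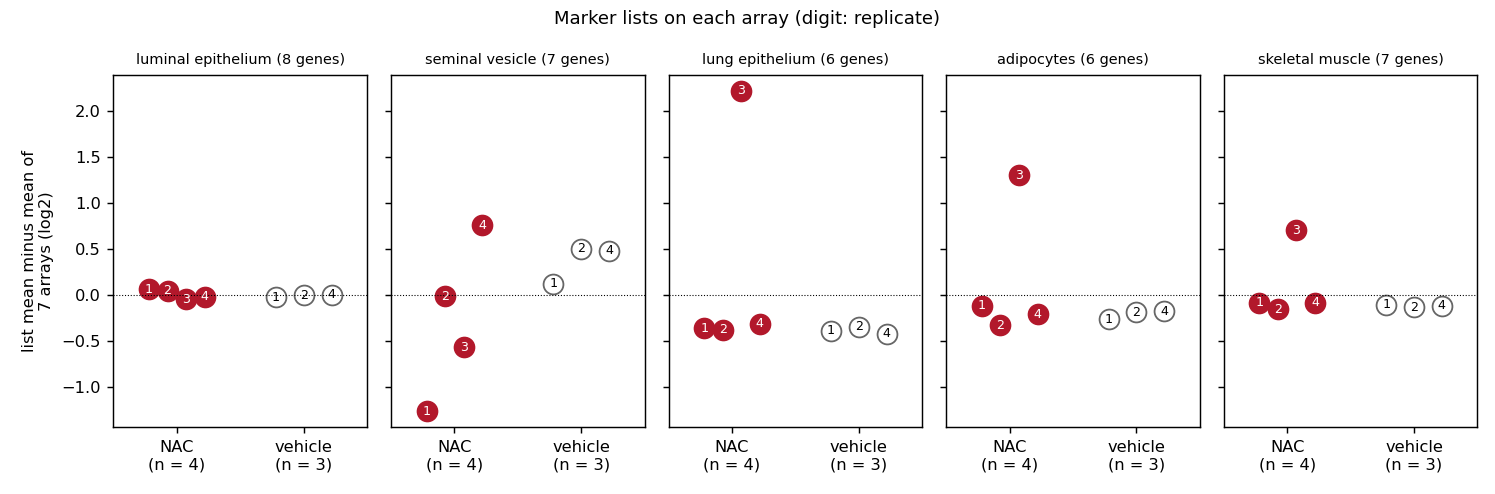
Mean log2 expression of marker lists on each array (y axis, minus the mean of the 7 arrays) for NAC arrays (filled, n = 4) and vehicle arrays (open, n = 3), digits giving the replicate. Luminal markers lie close together, NAC replicate 3 lies far above the other arrays in lung, adipocyte and skeletal muscle markers, and NAC replicate 1 is lowest in seminal vesicle markers at 8.62 before the mean is subtracted.

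The 6 polyamine genes on probe sets of their own differed by small amounts between NAC and vehicle prostates. The mean of Srm and Azin1 was higher with NAC and that of Odc1, Sat1, Smox and Oaz2 lower, with log2 fold changes from -0.18 for Oaz2 to 0.07 for Srm. Oaz2, an antizyme, had the smallest p, and the spermine oxidase gene Smox was next. With limma, 0 of the 6 genes passed an adjusted p under 0.05 over all genes, as did 0 of the 18938 genes (0%), and the smallest adjusted p was 0.827. At an unadjusted p under 0.05 there was 1 of the 6 genes, Oaz2, and 836 of all genes (4.41%). Split by direction, these were 1 of the 6 and 479 of all genes (2.53%) with the lower mean under NAC, and 0 of the 6 and 357 of all genes (1.89%) with the higher mean. None of the 6 genes had all NAC values on 1 side of all vehicle values, which 657 of all genes had (3.47%). The median log2 fold change was -0.05 over the 6 genes and 0.00 over all genes, and the median size of the change, whatever its sign, was 0.08 and 0.05. A lower mean with NAC was found in 4 of the 6 genes and in 50.5% of all genes, and a higher mean in 2 of the 6 genes and in 49.5% of all genes.

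**Figure D2:**
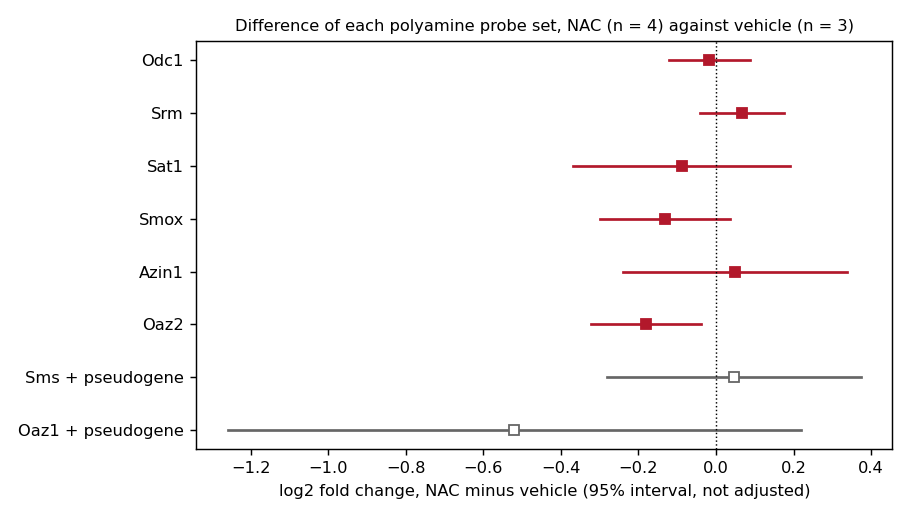
Log2 fold change of each polyamine probe set (x axis, NAC minus vehicle) with its 95% interval from limma, not adjusted for the number of genes, for probe sets of 1 gene (filled) and those shared with a pseudogene (open). Only the interval of Oaz2, from -0.32 to -0.04, lies apart from 0, and the probe set shared by Oaz1 has the widest interval.

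Odc1 encodes ornithine decarboxylase, which makes putrescine and limits the rate of the route (chr12:17544808-17551502, GRCm38.p6). Its values were 8.58, 8.64, 8.64 and 8.59 on NAC replicates 1 to 4, against 8.71, 8.55 and 8.63 on vehicle replicates 1, 2 and 4. All NAC values lay within the range of the vehicle values, whose highest and lowest were the extremes of the 7 arrays. Odc1 averaged 8.62 ± 0.03 (SD, n = 4) with NAC and 8.63 ± 0.08 (SD, n = 3) with vehicle, and the log2 fold change was -0.02 (SE, the standard error, 0.04, limma adjusted p = 0.937). The 95% interval, from -0.12 to 0.09, spans a fold of 0.92 to 1.06. The sign turned to 0.02 without vehicle replicate 1 and to 0.02 when the arrays were quantile normalized again. Of all genes, 80.1% had a larger change in size.

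Srm encodes spermidine synthase, which adds the aminopropyl group that turns putrescine into spermidine (chr4:148591513-148594619). It was at 11.45, 11.36, 11.53 and 11.42 on NAC replicates 1 to 4, against 11.41, 11.34 and 11.37 on vehicle replicates 1, 2 and 4. NAC replicates 1, 3 and 4 lay above every vehicle array, while NAC replicate 2 lay among them. The means were 11.44 ± 0.07 (SD, n = 4) with NAC and 11.37 ± 0.03 (SD, n = 3) with vehicle. The log2 fold change of 0.07 (SE 0.05, 95% interval -0.04 to 0.18, limma adjusted p = 0.827) did not pass, and it was 0.04 without NAC replicate 3, the array with the highest lung and adipocyte markers and the highest Srm value.

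Sms encodes spermine synthase, which carries out the next aminopropyl transfer (chrX:157443851-157492287). Its probe set also names the transcribed pseudogene Gm8234, and the values cannot be assigned to either. They were 8.48, 8.30, 8.51 and 8.05 on NAC replicates 1 to 4, against 8.22, 8.51 and 8.13 on vehicle replicates 1, 2 and 4, so that both groups covered nearly the same range. The log2 fold change was 0.05 (SE 0.14, 95% interval -0.28 to 0.37), with an adjusted p of 0.952 from limma over all 20696 probe sets. It was -0.03 without vehicle replicate 4. Both synthases use the product of Amd1, S-adenosylmethionine decarboxylase, whose expression was not analysed here.

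Both catabolic genes measured, Sat1 and Smox, had the lower mean with NAC, and neither passed the test. Sat1 encodes spermidine/spermine acetyltransferase, the step that commits polyamines to breakdown or export (chrX:155213126-155216449). It was at 10.37, 10.52, 10.18 and 10.39 on NAC replicates 1 to 4, against 10.23, 10.67 and 10.47 on vehicle replicates 1, 2 and 4. NAC replicate 3 was the lowest of the 7 arrays and vehicle replicate 2 the highest, and the groups overlapped widely. The means of Sat1 were 10.36 ± 0.14 (SD, n = 4) with NAC and 10.45 ± 0.22 (SD, n = 3) with vehicle. The log2 fold change of Sat1 was -0.09 (SE 0.12, limma adjusted p = 0.878), with a 95% interval from -0.37 to 0.19. It was 0.02 without vehicle replicate 2 and -0.03 without NAC replicate 3.

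Smox encodes spermine oxidase, which turns spermine back into spermidine and releases hydrogen peroxide (chr2:131491858-131525183). Its values were 9.25, 9.29, 9.20 and 9.01 on NAC replicates 1 to 4, against 9.39, 9.30 and 9.28 on vehicle replicates 1, 2 and 4. NAC replicates 1, 3 and 4 lay below every vehicle array, and NAC replicate 2 lay between vehicle replicates 4 and 2. Smox averaged 9.19 ± 0.12 (SD, n = 4) with NAC and 9.32 ± 0.06 (SD, n = 3) with vehicle, and the log2 fold change was -0.13 (SE 0.07, 95% interval -0.30 to 0.04, limma adjusted p = 0.827). NAC replicate 4, the lowest array, weighed most on the difference, which was -0.07 without it. A larger change in size was found in 12.7% of all genes. The expression of Paox, the oxidase of acetylated polyamines, was not analysed here.

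The regulators act on ornithine decarboxylase protein. Antizymes, made by a ribosomal frameshift that polyamines promote, bind its monomers, send them to the proteasome and restrain polyamine uptake, and antizyme inhibitors, relatives of the enzyme without its activity, bind antizymes instead. The arrays measured RNA, and none of these protein steps.

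Oaz2 encodes antizyme 2 (chr9:65676548-65690300). It was at 8.09, 8.07, 8.01 and 8.05 on NAC replicates 1 to 4, against 8.29, 8.32 and 8.09 on vehicle replicates 1, 2 and 4. The NAC arrays lay within 0.08 of each other, 3 of them below every vehicle array, and NAC replicate 1 had the same value as vehicle replicate 4. Oaz2 averaged 8.06 ± 0.03 (SD, n = 4) with NAC and 8.24 ± 0.12 (SD, n = 3) with vehicle. The log2 fold change was -0.18 (SE 0.06, 95% interval -0.32 to -0.04), a fold of 0.88 (0.80 to 0.97). The unadjusted p from limma was 0.020, an exact two-sided permutation test over the 35 splits of the arrays gave p = 0.057, and the difference did not pass over all genes (adjusted p = 0.827). With each array left out in turn it kept its sign, from -0.25 without vehicle replicate 4 to -0.14 without vehicle replicate 2. By p, Oaz2 ranked 238 among the 18938 genes.

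Azin1 encodes antizyme inhibitor 1 (chr15:38487430-38519294). Its values were 11.75, 11.90, 11.49 and 11.45 on NAC replicates 1 to 4, against 11.55, 11.73 and 11.52 on vehicle replicates 1, 2 and 4. The NAC arrays lay on both sides of the vehicle arrays, with replicates 1 and 2 above all of them and replicates 3 and 4 below. The means of Azin1 were 11.65 ± 0.22 (SD, n = 4) with NAC and 11.60 ± 0.12 (SD, n = 3) with vehicle, a difference of 0.05 in log2 (SE 0.12, 95% interval -0.24 to 0.34, limma adjusted p = 0.934). It was -0.03 without NAC replicate 2. Azin1 and Sat1 shared their highest array in each group, NAC replicate 2 and vehicle replicate 2. Their lowest arrays differed, being NAC replicate 4 and vehicle replicate 4 for Azin1 and NAC replicate 3 and vehicle replicate 1 for Sat1. How often other genes share arrays in this way was not examined.

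Oaz1 encodes antizyme 1 (chr10:80826656-80829290), and its probe set also names the transcribed pseudogene Oaz1-ps. This probe set had the largest difference of the 8 in size. It was at 6.87, 8.09, 7.04 and 7.88 on NAC replicates 1 to 4, against 7.90, 8.02 and 8.05 on vehicle replicates 1, 2 and 4. NAC replicates 1 and 3 were low, while NAC replicates 2 and 4 lay close to the vehicle arrays. The means were 7.47 ± 0.61 (SD, n = 4) with NAC and 7.99 ± 0.08 (SD, n = 3) with vehicle, a difference of -0.52 in log2 (SE 0.31, 95% interval -1.26 to 0.22) with an adjusted p of 0.825 from limma over all probe sets. Leaving out NAC replicate 1 gave -0.32, and leaving out NAC replicate 2 gave -0.73. The seminal vesicle markers were also lowest on NAC replicates 1 and 3, at 8.62 and 9.31. Macrophage markers were highest on the same arrays, at 8.12 and 7.96, with all 7 genes higher in the NAC mean, as were 49.5% of all genes. Basal epithelial markers were highest there too, at 8.57 and 8.37. Vehicle replicates 1 and 4, where the Oaz1 probe set was not low, lay close below in basal markers, at 8.32 and 8.26. On NAC replicates 1 and 3, lymphocyte (5.92 and 5.81), endothelial (7.395 and 7.64) and adipocyte markers (6.06 and 7.48) were highest as well. The next arrays lay close below in lymphocyte markers (NAC replicate 4, 5.79) and endothelial markers (vehicle replicate 4, 7.38). Not every list followed, since luminal markers were highest on NAC replicate 1 and lowest on NAC replicate 3, at 12.11 and 12.001. Smooth muscle, fibroblast, skeletal muscle, lung, nerve and red blood cell markers were not highest on both arrays either. NAC replicate 3 is also the array with high lung, adipocyte and skeletal muscle markers. The part of these in the difference was not tested. The values cannot be assigned to Oaz1 or to Oaz1-ps.

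**Figure D3:**
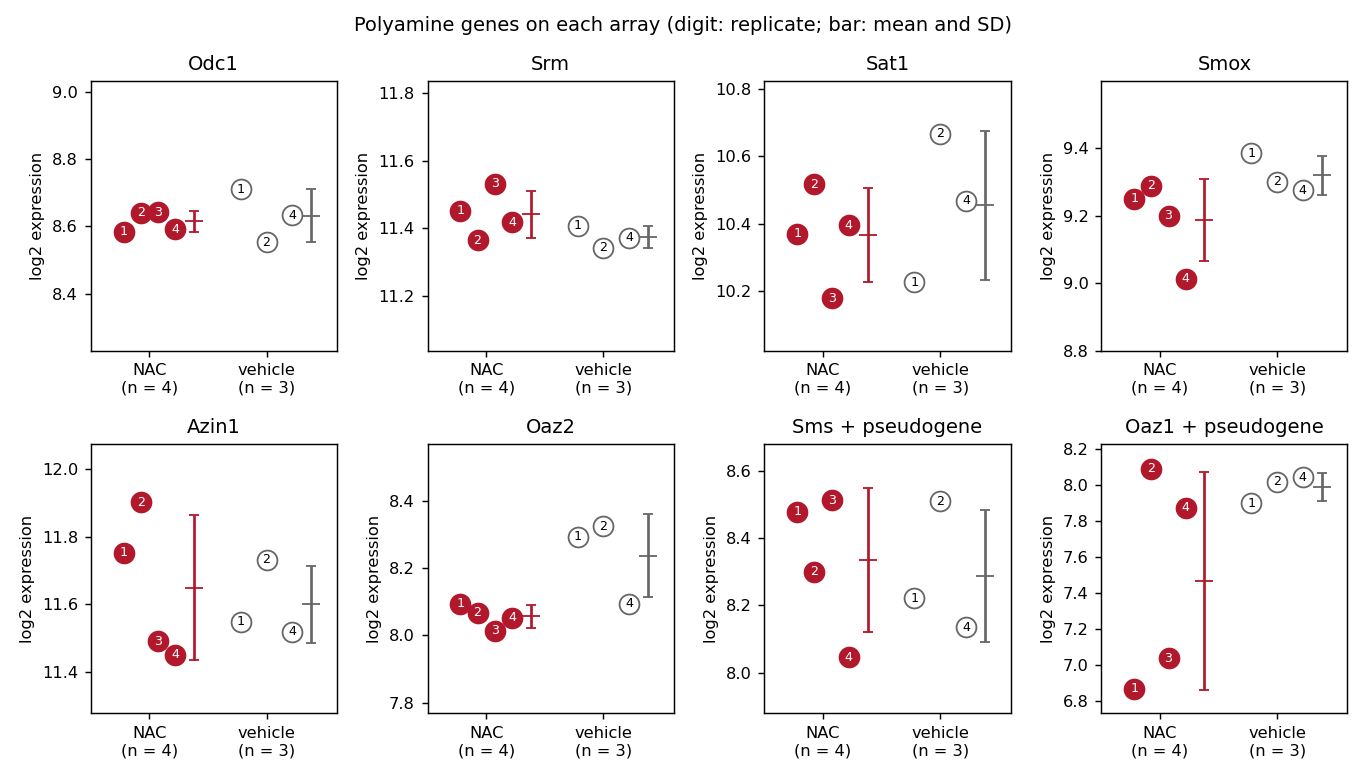
Log2 expression (y axis) of the 8 polyamine probe sets on NAC arrays (filled, n = 4) and vehicle arrays (open, n = 3), with the replicate as a digit and bars for mean and SD. All panels span the same number of log2 units, except that of Oaz1, which spans more. Oaz2 is tight with NAC, from 8.01 to 8.09, and the probe set shared by Oaz1 splits the NAC arrays into values near 7 and near 8.

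**Figure D4:**
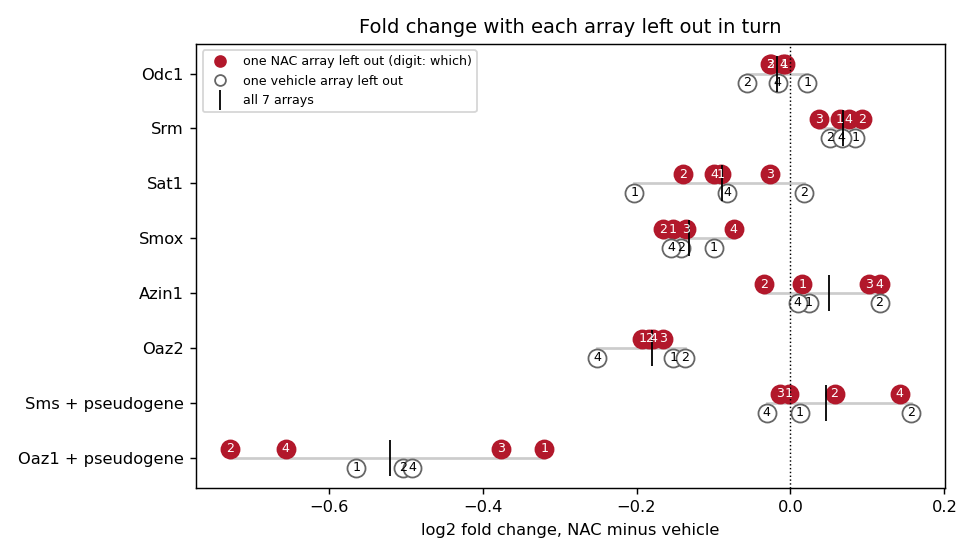
Log2 fold change of each polyamine probe set (x axis, NAC minus vehicle) with all 7 arrays (black bar) and with each NAC array (filled) or vehicle array (open) left out, digits giving the array left out. Oaz2, Smox and the probe set shared by Oaz1 stay below 0 and Srm above 0, while the other 4 cross 0.

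The promoters of Oaz2 and Smox are shown because these genes had the smallest p of the 6, both with the lower mean under NAC. The sequences are the 250 bases before a start of transcription in RefSeq (GRCm38.p6), at chr9:65676298-65676547 and chr2:131491612-131491861 on the plus strand. The Oaz2 window ends where the gene begins, and the Smox window ends a few bases inside the gene as annotated, so that its start is not the outermost one. Capitals mark matches on either strand to the GC box (GGGCGG), the antioxidant response element core (TGACNNNGC), to which NRF2 binds, and the E-box (CACGTG), to which Myc and Max bind.
Oaz2: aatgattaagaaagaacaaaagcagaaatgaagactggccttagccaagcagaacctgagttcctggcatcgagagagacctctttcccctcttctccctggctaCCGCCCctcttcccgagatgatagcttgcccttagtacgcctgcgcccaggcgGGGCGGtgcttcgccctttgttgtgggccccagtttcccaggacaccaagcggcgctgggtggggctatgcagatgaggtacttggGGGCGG
Smox: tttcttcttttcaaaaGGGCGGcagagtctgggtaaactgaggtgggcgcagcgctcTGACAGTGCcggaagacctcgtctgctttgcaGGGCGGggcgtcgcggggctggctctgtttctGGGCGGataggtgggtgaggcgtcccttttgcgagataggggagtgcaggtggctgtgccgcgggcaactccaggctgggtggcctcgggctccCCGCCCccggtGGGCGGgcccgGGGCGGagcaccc
Oaz2 held 3 GC boxes and neither of the other motifs, and Smox held 6 GC boxes and 1 antioxidant response element core that begins 193 bases before that start. Of the 10 listed genes, 8 have such a window in the sequences used, with 10 windows in all. Srm and Azin1 have none. Sms and Paox have more than 1 each, and those of Paox overlap and share a GC box, so the windows are not all separate. A GC box was found in 8 of the 10 windows, the antioxidant core in 2 (Smox and Oaz1) and the E-box in 1 (Sms). Over 32851 windows of all genes, the shares were 32.7% for the GC box, 10.2% for the antioxidant core and 6.0% for the E-box. A match is not a binding site, and binding was not measured here.

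Genes connected with polyamines were examined in lists chosen by function, none of which held a gene that passed limma's test over all genes in either direction. Among 6 further polyamine and antizyme genes, 5 had the higher mean with NAC and 1 the lower (median 0.05). Over all genes, 49.5% were higher. Oaz3 was at 5.62 on all NAC arrays and on vehicle replicate 2. Vehicle replicates 1 and 4, at 5.39 and 5.66, set its sign. Satl1 and Aoc1 averaged 4.37 and 5.32 with NAC, and whether such low values lie above background cannot be seen. The smallest p belonged to Satl1, a relative of Sat1, at 0.10 (SE 0.07, adjusted p = 0.827; 0.05 without NAC replicate 4), and Azin2, the second antizyme inhibitor, at 0.05 (SE 0.04, adjusted p = 0.827), or 0.03 without NAC replicate 4. Azin2 was at 6.55 on NAC replicates 1 and 2 and on vehicle replicates 1 and 4. On NAC replicates 3 and 4 it was at 6.64, and on vehicle replicate 2 at 6.54. Of 5 polyamine transport genes 3 were higher, with a median of 0.02. Slc22a2, an organic cation transporter that carries polyamines, was at 5.86 to 6.02 on NAC arrays and at 5.60 to 5.86 on vehicle arrays, and the groups did not overlap. Non-overlap with the higher values in NAC was found in 1.29% of all genes. Its log2 fold change was 0.23 (SE 0.07, limma adjusted p = 0.827), and whether so low a value lies above background cannot be seen from these values. The lysosomal polyamine exporter Atp13a2 had 0.06 (SE 0.05), and 0.013 without vehicle replicate 4.

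The precursors of polyamines are ornithine, made from arginine, and S-adenosylmethionine, made from methionine. Of 12 genes of arginine and ornithine 7 were higher and 5 lower (median 0.05). Arg1, an arginase that makes ornithine, averaged 5.89 ± 0.04 (SD, n = 4) with NAC and 5.78 ± 0.07 (SD, n = 3) with vehicle, and the arginine transporter Slc7a2 differed by -0.07 on the log2 scale (SE 0.04). Without vehicle replicate 1 Slc7a2 was at -0.04, and without vehicle replicate 4 Arg1 differed by 0.07 in place of 0.10. Whether values as low as those of Arg1 lie above background cannot be seen. Of 13 genes of the methionine cycle 5 were higher and 8 lower (median -0.02). Mtap, which recycles the methylthioadenosine that Srm and Sms release, was at 8.27, 8.35, 8.25 and 8.16 on NAC replicates 1 to 4, against 8.50, 8.35 and 8.45 on vehicle replicates 1, 2 and 4. NAC replicate 2 had the same value as vehicle replicate 2, and the other NAC arrays lay below every vehicle array. The log2 fold change of Mtap was -0.17 (SE 0.06, 95% interval -0.31 to -0.04), with an unadjusted p of 0.017 and an adjusted p of 0.827 from limma. The methionine synthase gene Mtr had -0.10 (SE 0.05), and -0.06 without vehicle replicate 1.

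Spermidine is used to form hypusine in the translation factor eIF5A. Of the 4 genes of this step 2 were higher and 2 lower (median -0.03). Dhps, which starts the modification, differed by -0.08 on the log2 scale (SE 0.04), and Eif5a2, the second eIF5A gene, by 0.10 (SE 0.06). Without vehicle replicate 2 or NAC replicate 4 the difference of Eif5a2 was 0.06. Odc1 is a textbook target of Myc. In the Myc network, 7 of 10 genes had the higher mean with NAC and 3 the lower one. The largest rises were those of Mxd1 (0.09, SE 0.06) and Mxd3 (0.07, SE 0.05), and Myc itself had 0.00 (SE 0.12). Mxd1 was at 9.07 on NAC replicate 3 and from 8.87 to 8.90 on the other NAC arrays. Mxd3 was at 7.05 on NAC replicate 3 and at 6.96 on the other NAC arrays. Over this list the median was 0.00, and the median size of the change 0.01. The list was not split by how its genes act on Myc, so the count gives no direction of Myc activity. Mycl, a Myc relative, averaged 8.97 ± 0.17 (SD, n = 4) with NAC and 9.22 ± 0.11 (SD, n = 3) with vehicle, a difference of -0.25 in log2 (SE 0.10, limma adjusted p = 0.827). Without NAC replicate 3, the lowest array for Mycl at 8.74, the difference was -0.17. The partner Max had -0.11 (SE 0.06), or -0.06 without vehicle replicate 1. Of 18 other Myc targets 6 were higher and 12 lower (median -0.03). The transferrin receptor gene Tfrc had 0.22 (SE 0.10), and the nucleolar gene Nolc1 -0.08 (SE 0.04) with all NAC arrays below all vehicle arrays, as in 2.18% of all genes. Tfrc was at 0.14 without vehicle replicate 4, and Nolc1 at -0.05 without vehicle replicate 1. Of 10 androgen-regulated genes 8 were higher, with a median of 0.05. These include Ndrg1 at 0.0001, with 8.73 on every array, and Acpp at 0.02. Acpp was at 6.78 on all NAC arrays and vehicle replicate 4, and vehicle replicate 1, at 6.74, set its sign. The probasin gene Pbsn had 0.10 (SE 0.07) and the prostein gene Slc45a3 0.12 (SE 0.09). Without NAC replicate 1 these were 0.04 and 0.05.

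**Figure D5:**
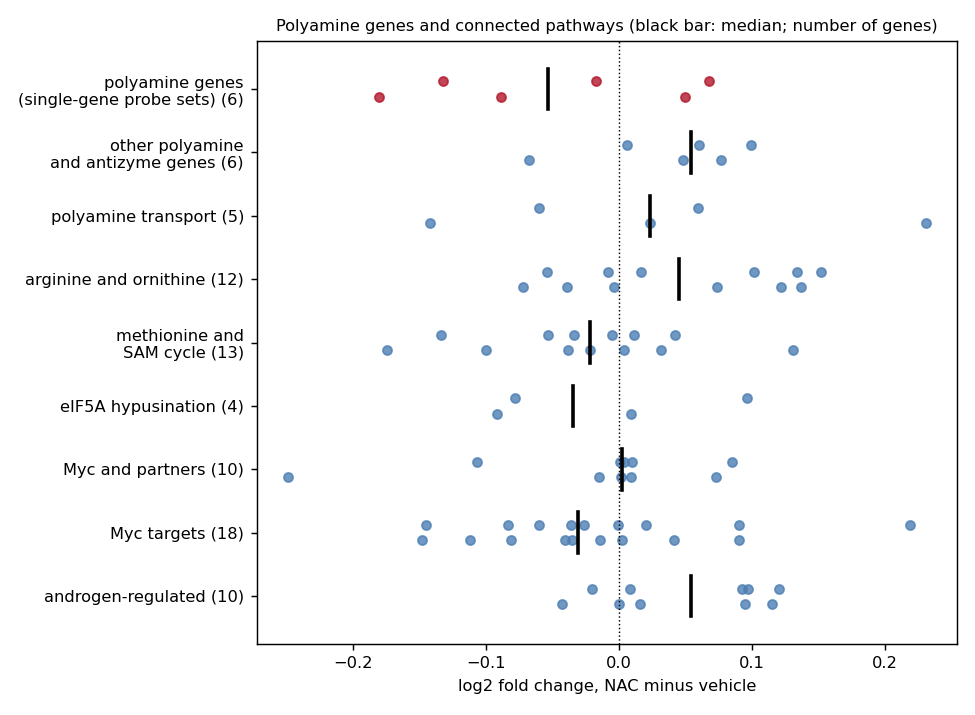
Log2 fold change (x axis, NAC minus vehicle) of the 6 polyamine genes on single-gene probe sets (red) and of connected lists (blue), 1 point per gene, with the median as a black bar and the number of genes in brackets. Every list lies on both sides of 0, with medians between -0.05 and 0.05.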

How the data were processed

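The deposited values are log2 expression per probe set. The authors hybridised RNA of single mice to 1 array each and summarized them with RMA from the Affy package (background correction, quantile normalization, median polish). The submitters' processing notes list affy, RMA and limma but no version of any. The authors left out 1 of 4 vehicle arrays for quality. Of 20696 probe sets, 18950 name 1 gene, 678 several and 1068 none in the annotation used here, and 18910 of 18938 genes were found by Entrez identifier in RefSeq's GRCm38.p6 table. A gene was represented by its probe set of highest mean, and 0 columns lacked a sample. Identical values on 3 or more arrays were found for 40.0% of genes. How far a value lies above background cannot be seen after summarization, and precision is limited by how few arrays there are.

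The contrast of NAC with vehicle was fitted in limma (version 3.58.1, R 4.3.3) with moderated two-sided tests and no covariates, and genes under a Benjamini-Hochberg adjusted p of 0.05 over all genes were called. The probe sets of Sms and Oaz1 were fitted among all probe sets. The exact permutation test took the difference in means over 35 splits, the smallest two-sided p being 1 split in 35. The fit was tested on simulated data. The members and lists were chosen with earlier results of these data known. Named are all members and the 2 genes of smallest unadjusted p in each connected list. Myc, Mxd1, Mxd3, Oaz3, Aoc1 and single seminal vesicle genes fall outside this rule and were named after their values were seen. Alternatives varied the variance model (trend and robust fit), the weights of arrays, the scaling (medians subtracted, or quantiles matched again), the genes kept (none below the 40th percentile of mean expression), the summary of several probe sets (median), the replicate number as a block, and the arrays, each left out once. A fit to all probe sets was added after the data were examined.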

Additional observations from a re-analysis of the deposited data

Results flagged for a closer look

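The NAC values of 24 probe sets were screened. These were the 8 of the members and those of the 2 genes of smallest unadjusted p in each connected list. Other genes mentioned were not screened, Mxd1 and Mxd3 among them, which were highest on NAC replicate 3 at 9.07 and 7.05. In 1 of the 24, 1 array lay far from the other 3. Atp13a2, the lysosomal polyamine exporter, was at 8.99 on NAC replicate 1 and from 8.91 to 8.92 on the other NAC arrays, a gap of 0.95 of the range. Vehicle arrays were at 8.91, 8.93 and 8.78. The chance rate of about 5% for such groups holds for values without ties. Atp13a2 had the same value, 8.911, on NAC replicates 2 and 3 and on vehicle replicate 1, so this rate cannot be applied to it. Groups of 3 were not examined.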

How the results depend on the processing

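Under the alternatives, 0 of the 6 polyamine genes were called, and 0 of 358 alternative fold changes of 24 probe sets passed the threshold. These are not separate checks, since several alternatives change the test and leave the fold change as it was. Signal over background was not examined. Over all genes 0 to 1 passed with an array left out (Crip1, without NAC replicate 4, named after its value was seen) and 0 otherwise. Genes at an unadjusted p under 0.05 numbered 836, 554 without dim genes, where fewer genes were tested, and 597 (without NAC replicate 4) to 1257 (without NAC replicate 2) with an array left out. Genes whose groups did not overlap numbered 657, 1015 after subtraction of array medians, 1157 after quantile normalization again and 926 to 2241 with an array left out, where fewer arrays overlap less.

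Of the 24 fold changes, 20 kept their sign. That of Odc1 was 0.020 after quantile normalization again and -0.057 to 0.022 with an array left out. Sat1 ranged from -0.20 to 0.018 and Azin1 from -0.035 to 0.12 in the same way, and the probe set shared by Sms from -0.031 to 0.16. The cause was not tested. Same-numbered arrays deviated together with r = 0.21 for replicate 1 and 0.29 for replicate 2 but -0.07 for replicate 4, so the numbers were not taken to pair the mice. With the replicate number as a block, a fit that leaves NAC replicate 3 without a partner, 0 genes passed and 956 had an unadjusted p under 0.05. Oaz2 was at -0.17, and the probe set shared by Sms changed sign to -0.014. Both fold changes are the same as those without NAC replicate 3.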
